A study of Mus musculus with 24 samples.

Results

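The mouse nuclear receptor genes are described here by the open chromatin around them in skin stem cells before and after wounding. The 39 member genes were taken as a gene family and not by their measured values, though earlier results of these data were known. Peaks from 8 deposited ATAC-seq lists were merged into 63188 regions, and each region went to the protein-coding gene closest to it, at most 50 kb away. This assigned 52791 regions to a gene, of which 230 belonged to 34 of the 39 members. The other 5 members, Nr1i3, Pgr, Nr2e1, Nr2f1 and Nr5a2, had no region. A region counted as present in a list when a peak of that list overlapped it by at least 1 bp. Assignment places a region near a gene and does not show that it acts on that gene.

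ATAC-seq marks accessible DNA by where a transposase inserts. The 24 samples came from skin of mice of a CD1 x C57BL/6J cross, and each of the 8 groups has 1 deposited list. All mice carried R26-YFP, a fluorescent reporter switched on by Cre, together with a tamoxifen-inducible Cre driven by the promoter of another gene. Unwounded Krt19-CreER/R26-YFP mice gave 4 samples of hair follicle stem cells, taken at day 0, and epidermal stem cells taken at day 0 (4 samples) or day 80 (3 samples). Mice of the same genotype with a partial-thickness wound gave cells labelled as wound-responsive progeny of the hair follicle in 3 samples of day 3, 2 of day 7 and 3 of day 80. Sox9-CreER/R26-YFP mice with a full-thickness wound gave cells labelled as epidermal progeny at day 7 (3 samples) and day 80 (2 samples). Krt19 and Sox9 both mark hair follicle stem cells, so each Cre limits which cells carry the reporter. The ages of the mice, the gates of the sort and any pooling of animals are not stated in what was used here. Genotype, labelled origin of the cells and wound type cannot be told apart between the partial-thickness and full-thickness groups.

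Nuclear receptors are transcription factors that bind DNA through a zinc finger domain, and most are switched by small lipophilic ligands such as steroids, retinoic acid, vitamin D, thyroid hormone, fatty acids or sterols. Many of them bind the hexamer AGGTCA, alone or repeated, often as dimers with an RXR partner. Without ligand several recruit corepressors, and with ligand they exchange these for coactivators. In skin, retinoic acid receptors and the vitamin D receptor act in epidermal differentiation and the hair cycle, PPARs in barrier lipids and sebum, and the glucocorticoid receptor in restraint of inflammation.

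The lists held between 29365 peaks (hair follicle) and 37214 peaks (full-thickness day 7). Their weakest kept peak ran from a −log10 p of 7.86 to 40.19, and their median peak width from 460 bp to 987 bp. Depth per sample is unknown, and with 1 list per group there is no replicate error and no test between groups. Shares carry 95% intervals (exact, Clopper-Pearson), which hold counting error alone. Peak names in the day 0 epidermal list carry a control tag for day 7, and its group was taken from the name of the list. Marker genes of hair follicle stem cells held 63 regions in the list of that cell type, against 36 and 32 in epidermis of day 0 and day 80. Genes that mark the epidermis had 20 against 39 and 44. Of the 20 regions at fibroblast genes, 14 were in the hair follicle list and 3 to 6 in each other list, and of the 22 at melanocyte genes, 15 against 10 or 11. Their part in the hair follicle results below was not tested. Immune genes had 1 to 6 of their 13 regions in a list, and Csf1r, Lyz2, Cd3d and Cd207 had none in any list. Of the 26 regions at endothelial genes, the unwounded lists held 9, 6 and 8, partial-thickness days 3 and 7 15 and 20, and the other wound lists 11 or 12. Pecam1 had 12 of these regions, Vwf 8, Tek 5 and Cdh5 1, and Kdr had none. Their part in the early wound results below was not tested. Muscle genes had 3 to 7 of their 9 regions in a list.

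Start sites differed in how constantly they were open, and 8 upstream sequences show the cases the results return to. Each gives the 250 bases before a RefSeq start site on GRCm38.p6, the assembly of mm10, 5′ to 3′ in the direction of the gene, with any AGGTCA (searched on both strands) in capitals. The start sites printed for Nr1d2 and Thrb were in all 8 lists, and those for Ppara, Ppard, Rarg and Rorb in only some. Those of all 3 Pparg entries, of which 2 are printed, were in none. Nr1d2 and Thrb are the only 2 of 15 member entries in all 8 lists that hold the hexamer, and the 2 Pparg entries were picked because they hold it, so they do not represent their classes. They lie at Nr1d2, chr14:18239107-18239356, minus strand, at Thrb, chr14:17660710-17660959, plus strand, at Ppara, chr15:85735526-85735775, plus strand, at Ppard, chr17:28232504-28232753, plus strand, at Rarg, chr15:102246501-102246750, minus strand, at Rorb, chr19:19111197-19111446, minus strand, and at Pparg, chr6:115360894-115361143, plus strand and chr6:115362099-115362348, plus strand.
Nr1d2: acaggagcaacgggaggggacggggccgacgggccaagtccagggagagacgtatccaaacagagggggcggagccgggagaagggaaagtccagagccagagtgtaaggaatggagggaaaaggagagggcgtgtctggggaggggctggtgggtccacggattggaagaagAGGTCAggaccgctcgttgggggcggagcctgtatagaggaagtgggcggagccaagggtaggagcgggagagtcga
Thrb: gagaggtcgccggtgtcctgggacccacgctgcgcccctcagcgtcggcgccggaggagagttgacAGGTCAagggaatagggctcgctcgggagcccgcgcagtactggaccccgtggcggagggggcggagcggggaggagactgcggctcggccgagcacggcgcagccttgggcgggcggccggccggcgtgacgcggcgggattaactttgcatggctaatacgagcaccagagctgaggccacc
Ppara: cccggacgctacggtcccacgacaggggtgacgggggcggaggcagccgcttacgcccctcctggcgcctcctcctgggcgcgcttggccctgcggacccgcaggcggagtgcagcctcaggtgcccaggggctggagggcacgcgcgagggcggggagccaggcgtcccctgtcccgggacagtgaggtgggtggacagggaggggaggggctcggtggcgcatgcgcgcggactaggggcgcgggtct
Ppard: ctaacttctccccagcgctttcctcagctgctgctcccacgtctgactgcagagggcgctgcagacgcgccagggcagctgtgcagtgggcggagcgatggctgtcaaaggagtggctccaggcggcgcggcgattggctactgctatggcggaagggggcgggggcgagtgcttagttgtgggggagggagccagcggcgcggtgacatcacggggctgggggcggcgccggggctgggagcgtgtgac
Rarg: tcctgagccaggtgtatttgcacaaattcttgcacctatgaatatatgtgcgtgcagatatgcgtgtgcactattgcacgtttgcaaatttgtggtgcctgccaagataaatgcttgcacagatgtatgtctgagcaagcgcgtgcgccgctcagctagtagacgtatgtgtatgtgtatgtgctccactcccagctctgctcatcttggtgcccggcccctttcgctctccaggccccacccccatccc
Rorb: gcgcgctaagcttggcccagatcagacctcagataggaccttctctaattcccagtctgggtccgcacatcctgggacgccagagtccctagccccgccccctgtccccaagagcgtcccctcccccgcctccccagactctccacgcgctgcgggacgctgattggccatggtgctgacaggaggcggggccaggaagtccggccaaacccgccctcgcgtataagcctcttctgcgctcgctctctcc
Pparg first: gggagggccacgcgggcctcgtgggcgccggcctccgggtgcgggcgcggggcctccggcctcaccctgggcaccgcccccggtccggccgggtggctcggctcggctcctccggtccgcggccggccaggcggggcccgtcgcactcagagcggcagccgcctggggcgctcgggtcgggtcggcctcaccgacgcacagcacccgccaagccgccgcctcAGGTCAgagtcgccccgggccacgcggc
Pparg second: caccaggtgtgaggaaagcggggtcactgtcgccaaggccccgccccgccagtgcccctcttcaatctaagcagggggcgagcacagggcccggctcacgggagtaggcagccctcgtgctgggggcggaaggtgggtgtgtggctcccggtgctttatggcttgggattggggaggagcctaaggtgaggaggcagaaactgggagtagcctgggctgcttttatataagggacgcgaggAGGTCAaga

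In these 8 sequences the hexamer begins 77 bases before the start site of Nr1d2, 184 before that of Thrb, and 28 and 9 before those of Pparg. The other 4 hold none. RefSeq promoter entries (250 bases before to 50 after a start site) were matched for 37 of the 39 members, with 57 entries, all but Nr3c1 and Thra. AGGTCA on either strand was in 11 of the 57 (19.3%), beside 16.3% of all 32851 entries. By openness, it was in 2 of the 15 member entries in all 8 lists (beside 10.8% of such entries of all genes), 1 of the 17 in 1 to 7 lists (beside 12.9%) and 8 of the 25 in none (beside 19.5%). The longer AAAGGTCA, which contains it and is bound by NR4A proteins, was in 2 (3.51%, beside 1.51%), at Rxra and Rxrg. TAGGTCA, the ROR and REV-ERB core that also contains the hexamer, was in 0 of 57 (2.61% of all). The AP-1 letters TGANTCA were in 3 (5.26%, beside 7.81%), at Nr1i3, Esrrg and Rorb. A match is a description of letters and not a bound site, and no match says only that these letters are not in this window. Base composition moved with openness: the median observed to expected ratio of CpG was 0.866 over the 15 member entries open in all 8 lists, 0.609 over the 17 open in 1 to 7, and 0.403 over the 25 open in none. The same medians over all genes were 0.807, 0.634 and 0.224.

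Of the 230 regions, 34 (14.8%) lay within 1 kb of a start site, beside 22.9% of all assigned regions. Start sites were taken from RefSeq where the strand is given and from both gene ends otherwise. Another 153 (66.5%, beside 47.7%) lay elsewhere inside a gene and 43 (18.7%, beside 30.1%) outside. Exons, introns and UTRs were not analysed here. A start-site region was found for 28 members, and for 15 of these in all 8 lists. Of the 34 start-site regions 15 (44.1%) were in every list, beside 64.3% of those of all genes. Members had a median of 4 regions each, beside 2 for all genes with a region. Rora (39), Rarb (21), Thrb (21) and Rxra (15) held 96 of the 230 (41.7%), and the first 3 are long genes of 735 kb, 651 kb and 381 kb. Per 100 kb of gene, Rora had 5.31 regions inside it, Rarb 3.07 and Thrb 4.73, while the short gene Nr2f6 had 25.5, Nr1h2 23.0 and Vdr 18.6. Of the 230 regions, 54 were in 1 list (23.5%, beside 24.9% of all assigned regions), 129 in 2 to 7 and 47 in all 8 (20.4%, beside 24.4%). Ranks given below order the authors' peaks of 1 list by their −log10 p, with 100 as its strongest peak.

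**Figure D1:**
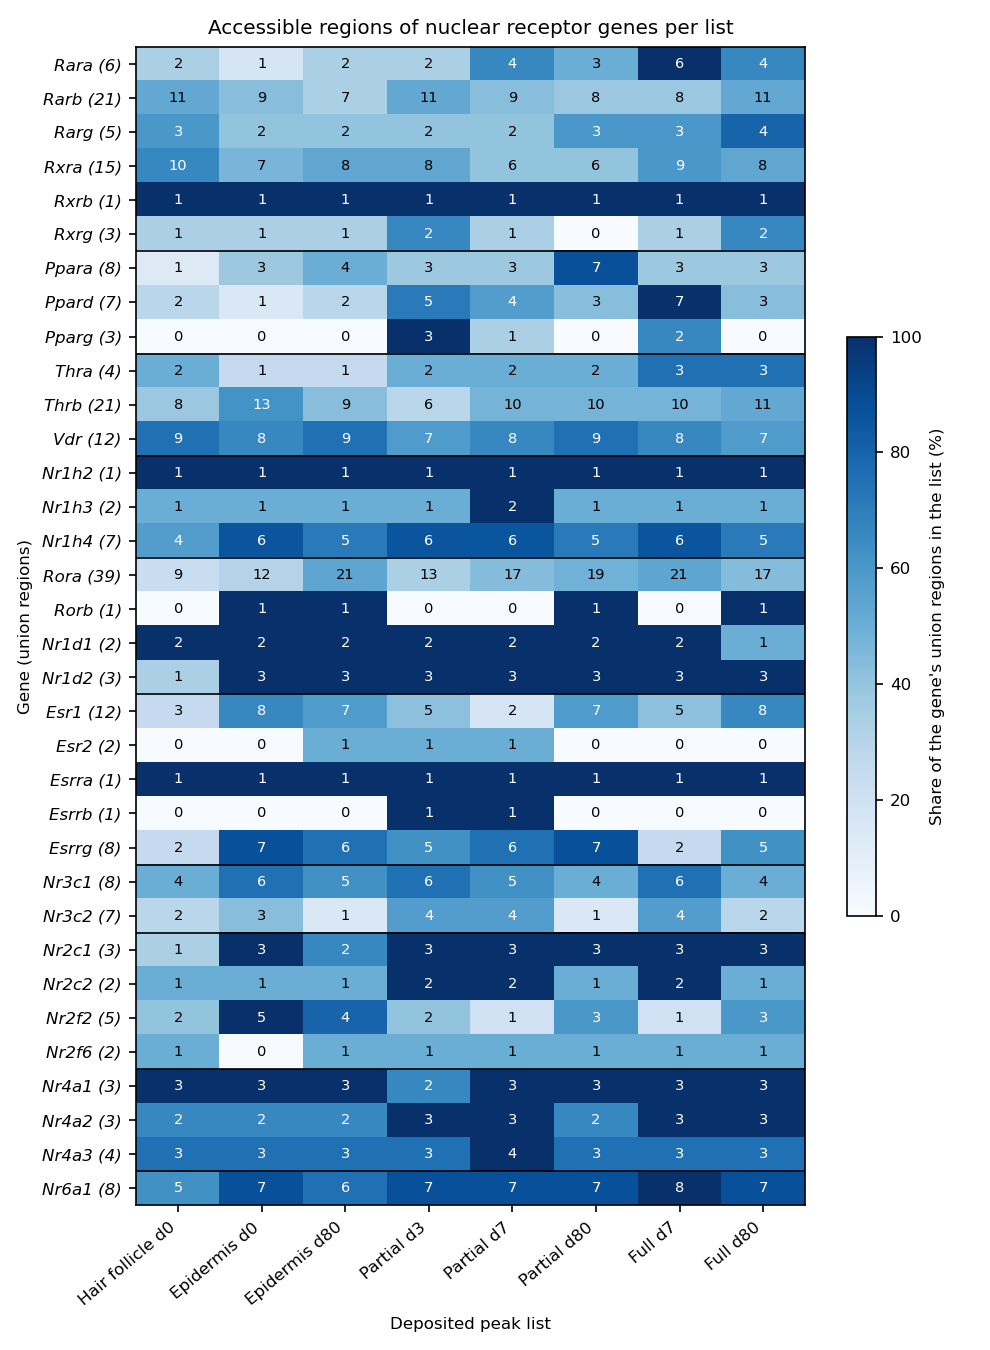
Number of accessible regions of each of the 34 nuclear receptor genes (rows, with all regions of the gene in brackets, ruled off by receptor class) in each deposited peak list (columns), shaded by the percent of the gene's regions that the list holds. Pparg has regions only in the 3 early wound columns, Rorb only in the epidermal and day 80 wound columns, and Rxrb, Nr1h2 and Esrra 1 region in every column.

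Counts over the lists follow in 1 order: hair follicle, epidermis day 0, epidermis day 80, partial-thickness day 3, day 7 and day 80, full-thickness day 7 and day 80. The grid of region counts by gene and list shows them for every member.

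The retinoid receptors (6 genes, 51 regions) had 28, 21, 21, 26, 23, 21, 28 and 30 regions. Rara, a retinoic acid receptor (chr11:98927800-98974942), had 2, 1, 2, 2, 4, 3, 6 and 4 of its 6 regions. All 6 were listed at day 7 of the full-thickness wound, and 1 in the day 0 epidermis. A region inside Rara at chr11:98959292-98962409 was in each of the 5 wound lists but in no unwounded one. It ranked 14.4, 28.3 and 28.7 after the partial-thickness wound (days 3, 7 and 80) and 45.1 and 43.7 after the full-thickness wound (days 7 and 80). Its ranks lay below the middle of each list, so this is a region of modest strength. The start site of Rara at chr11:98936220-98938593 was open in the hair follicle list and both full-thickness lists alone.

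Rarb, a second retinoic acid receptor (chr14:16430839-17082331), had 11, 9, 7, 11, 9, 8, 8 and 11 of its 21 regions. Its 4 constant regions were among the stronger ones, and that at chr14:16432593-16434625 ranked from 79.4 in the hair follicle list to 98.3 at day 3. Another 5 regions were in the hair follicle list alone, and 3 in all 3 early wound lists and no other. The start site, chr14:16574920-16575923, was in every unwounded list, at partial-thickness days 3 and 80 and at full-thickness day 80, and in neither day 7 list. Rarg, the third receptor of this kind and an abundant one in epidermis, had 3, 2, 2, 2, 2, 3, 3 and 4 of 5 regions. Its inner start site at chr15:102245969-102248037, whose upstream sequence is printed above, was open in hair follicle cells and all 5 wound lists, and in neither epidermal list. It ranked 12.3 in hair follicle cells, 49.6, 16.1 and 28.4 after the partial-thickness wound, and 32.8 and 5.25 after the full-thickness wound. No other member region was shared by hair follicle cells and both early partial-thickness lists without an epidermal list: 1 of 230 (0.435%, interval 0.011% to 2.40%), beside 3.03% of all assigned regions. For the wider class of hair follicle regions in neither epidermal list, the share found at day 3 changed with the rule for presence, as given below.

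The RXRs are the shared dimer partners. Rxra (chr2:27676445-27763319) had 10, 7, 8, 8, 6, 6, 9 and 8 of 15 regions, of which 5 were in all lists and 3 in the hair follicle list alone. Its start site, chr2:27676083-27677918, was in the hair follicle, day 80 epidermal and full-thickness day 7 lists only. Rxrb had 1 region, at its start site, in all 8 lists. Rxrg, with expression known mainly from muscle and nervous system, had 3 regions and between 0 and 2 in a list, none at a start site.

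The 3 PPAR genes had 3, 4, 6, 11, 8, 10, 12 and 6 of their 18 regions, from 3 to 6 in the unwounded lists and from 6 to 12 in the wound lists. Of all assigned regions, the unwounded lists held 46.8% to 51.5% and the wound lists 53.1% to 61.2%. With lists cut to equal length, Ppara had 1, 1, 3, 1, 1, 4, 1 and 3 regions. Ppard then had 2, 1, 1, 3, 1, 3, 6 and 2, and Pparg 0, 0, 0, 1, 1, 0, 2 and 0. PPARs are fatty acid receptors that pair with RXR. Pparg, the factor of fat cells and sebocytes (chr6:115360879-115490404), had no region in the unwounded or day 80 lists, and 3, 1 and 2 regions at partial-thickness day 3, partial-thickness day 7 and full-thickness day 7. The strongest, inside the gene at chr6:115432348-115433197, was in all 3 of these lists with ranks of 63.6, 23.7 and 89.3. A region 37466 bp outside the gene, chr6:115322576-115323413, was at partial-thickness day 3 and full-thickness day 7 (ranks 9.70 and 31.6), and chr6:115397436-115398143 at day 3 alone. The Pparg start sites printed above lay in no list. A gene listed with no peak may still have accessibility below the threshold of that list.

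Ppard, the PPAR most linked to keratinocytes (chr17:28232754-28301469), had 2, 1, 2, 5, 4, 3, 7 and 3 of 7 regions, all inside the gene or at its start. Full-thickness day 7 held all 7. One region, chr17:28236221-28237607, was in every list, with ranks of 23.4, 40.1 and 23.3 in the unwounded lists and of 78.2, 84.2, 55.7, 58.7 and 34.8 in the wound lists. The Ppard start site was in every list but those of the hair follicle and the day 0 epidermis. A region at chr17:28259750-28260990 was in both early partial-thickness lists (ranks 37.4 and 12.5) and both full-thickness lists (59.3 and 53.8), in no unwounded list, and not at day 80 after the partial-thickness wound.

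Ppara (chr15:85734910-85806851), the PPAR known best for fatty acid oxidation, had 1, 3, 4, 3, 3, 7, 3 and 3 of 8 regions, with its largest number at day 80 of the partial-thickness wound. Of those 7, 2 were in no other list, at chr15:85715964-85716622 (rank 7.97) and chr15:85724667-85725579 (rank 27.7). Its start site was open in every list but that of the hair follicle, with low ranks from 0.617 to 26.0. A region 24431 bp outside the gene, chr15:85708901-85710479, was in all 5 wound lists (ranks 47.0, 30.3, 50.8, 56.3 and 12.7) and absent from the unwounded ones. It and the Rara region above were the only 2 of the 230 with that pattern (0.87%, interval 0.105% to 3.11%), beside 0.771% of all assigned regions.

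**Figure D2:**
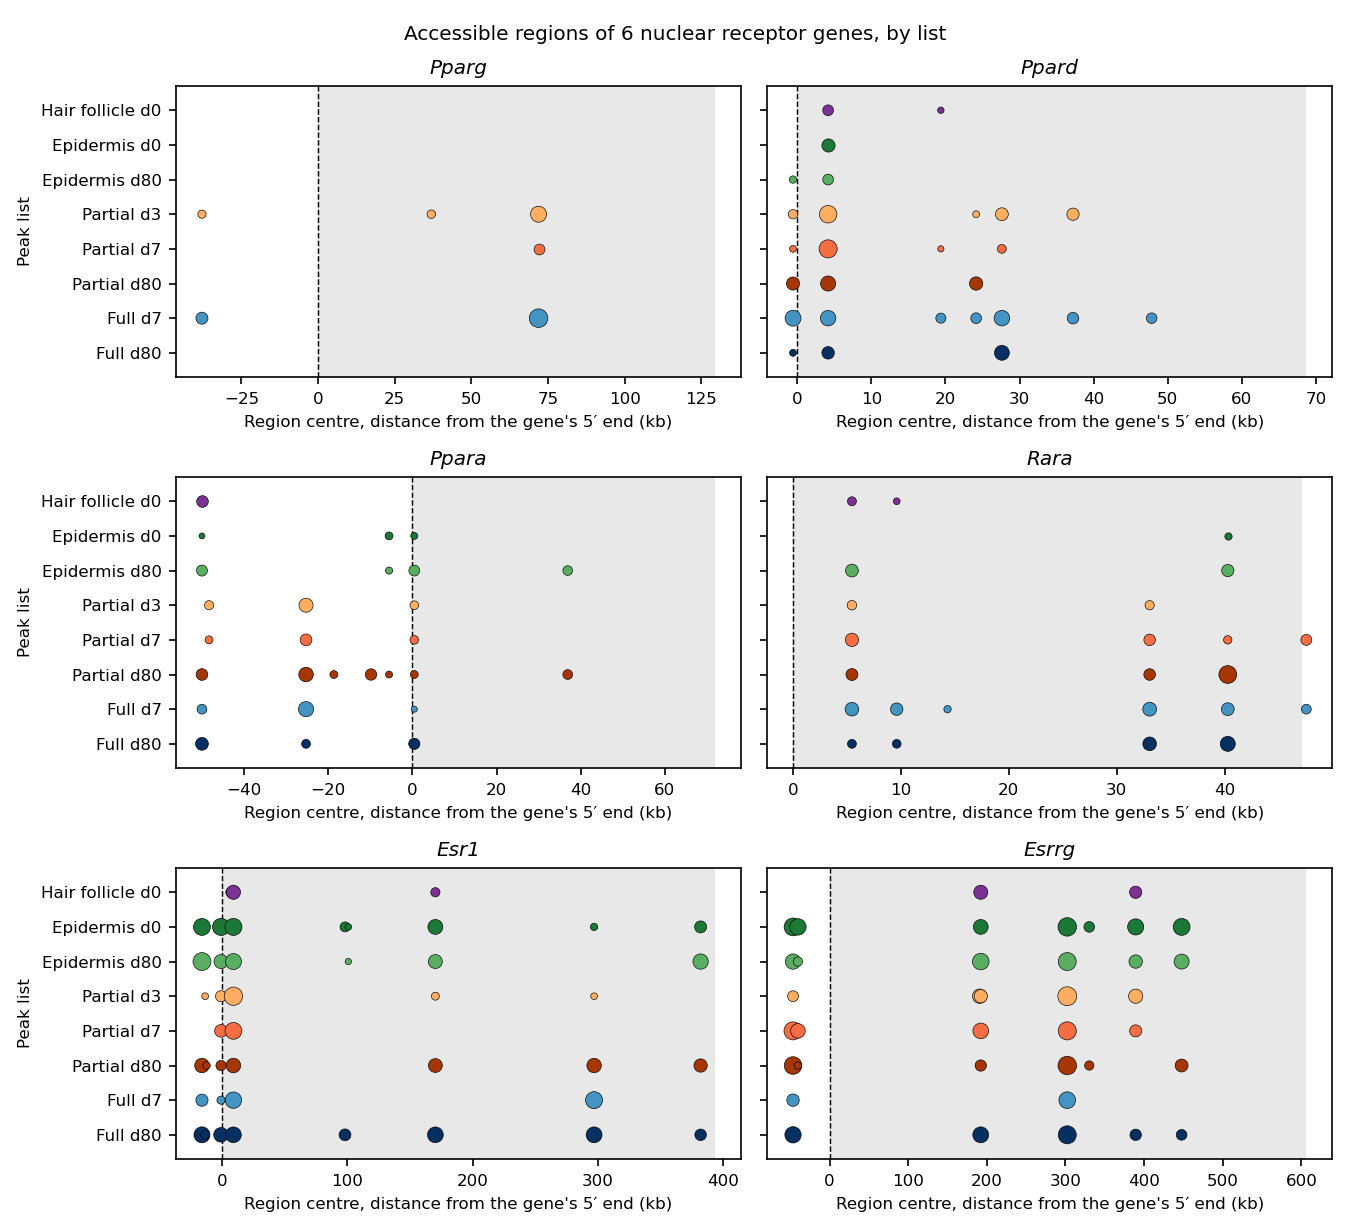
Position of accessible regions at 6 nuclear receptor genes, as the distance in kb of the region's centre from the 5′ end of the gene (dashed line, gene body in grey), for each peak list (rows). Larger points mark a higher rank within the list: the Pparg points are confined to the 3 early wound rows of that panel, and the Ppard row of full-thickness day 7 holds all 7 regions of that gene.

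The thyroid hormone and vitamin D receptors (3 genes, 37 regions) had 19, 22, 19, 15, 20, 21, 21 and 21 regions. Thrb, a thyroid hormone receptor (chr14:17659225-18040097), had 8, 13, 9, 6, 10, 10, 10 and 11 of 21 regions, the most in day 0 epidermis and the fewest at day 3. Of its regions, 4 were in the hair follicle list alone and 5 in both epidermal lists but not in the hair follicle list. Thra had 2, 1, 1, 2, 2, 2, 3 and 3 of 4 regions, and its region at chr11:98762566-98763978 was in all lists with ranks from 43.9 to 94.7. Vdr, the vitamin D receptor that the hair cycle needs (chr15:97854427-97908296), had similar counts throughout, with 9, 8, 9, 7, 8, 9, 8 and 7 of 12. Its start site and 3 other regions were in all 8 lists, and a region at chr15:97884967-97885867 was in the hair follicle list alone with a rank of 69.7.

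The sterol and bile acid receptors (4 genes, 10 regions) had 6, 8, 7, 8, 9, 7, 8 and 7 regions, 4 of them in all 8 lists. Nr1h2 (LXR beta) had 1 region, at its start site, in every list. Nr1h3 (LXR alpha) had such a region too, shared with a neighbouring gene at the same distance, and a second one at partial-thickness day 7 alone. Nr1h4 (FXR), best known from liver and gut, had 4, 6, 5, 6, 6, 5, 6 and 5 of 7 regions, none at its start site. Of them, 2 were missing from hair follicle cells alone. Nr1i3 (CAR), a sensor of foreign compounds, had none. Its nearest region lay 2082 bp away and was closer to Tomm40l.

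Rora, a ROR receptor (chr9:68653404-69388246), had 9, 12, 21, 13, 17, 19, 21 and 17 of its 39 regions, all inside the gene. Its count differed by 9 between the 2 unwounded epidermal lists, as much as between full-thickness day 7 and day 0 epidermis. Of the 39, 12 were in a single list, 5 of these at full-thickness day 7, and 2 were in all 8. In the region at chr9:69084451-69085606, found everywhere, the rank was 33.3 and 43.4 in the day 0 lists and between 65.7 and 86.6 in the other 6. Rorb had 1 region, its start site at chr19:19110188-19111670. It was open in the day 0 and day 80 epidermal lists (ranks 56.9 and 45.7) and the day 80 partial-thickness and full-thickness lists (13.1 and 29.8), and in neither the hair follicle list nor any early wound list. This pattern was shared by 1 region each of Esrrg, Esr1, Thrb, Nr2f2 and Rora, 6 of 230 (2.61%, interval 0.963% to 5.59%), beside 2.07% of all assigned regions.

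Nr1d1 and Nr1d2 encode the REV-ERB repressors of the circadian clock. Nr1d1 had 2 regions in every list but full-thickness day 80, which held 1. The start site of Nr1d2 was among the strongest member regions, with ranks from 83.7 at day 3 to 98.8 in the hair follicle list. The other 2 regions of Nr1d2, at chr14:18217298-18219643 and chr14:18233715-18234532, were missing from hair follicle cells alone.

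Of the oestrogen receptors and their relatives (5 genes, 24 regions), 6, 16, 15, 13, 11, 15, 8 and 14 regions were listed. Esr1, oestrogen receptor alpha (chr10:4611989-5005633), had 3, 8, 7, 5, 2, 7, 5 and 8 of 12. The unwounded epidermal and day 80 wound lists held 7 or 8 of these, and the hair follicle and early wound lists 2 to 5. The Esr1 start site, chr10:4609524-4612848, was in every list but that of the hair follicle, ranking 74.3 and 47.1 in the epidermal lists and 26.0, 36.3, 20.1, 9.03 and 51.2 in the wound lists. A region upstream at chr10:4595555-4596401 was in both epidermal lists (72.5 and 82.5), in neither early partial-thickness list, and in the other wound lists (50.8, 32.7 and 63.4).

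Esrrg, an orphan relative with roles in oxidative metabolism (chr1:187608510-188214885), had 2, 7, 6, 5, 6, 7, 2 and 5 of 8. The hair follicle and full-thickness day 7 lists held 2 each and were the lowest. These were different regions: the hair follicle list held chr1:187800461-187801286 and chr1:187997463-187998289, and full-thickness day 7 chr1:187561596-187562653 and chr1:187910439-187911286. The last ranked between 70.0 and 92.7 in the 7 lists that held it. Esrra had its start site, shared with another gene, in all 8 lists. Esrrb, known from embryonic stem cells, had 1 region, at partial-thickness days 3 and 7. Esr2, oestrogen receptor beta, had 1 region in each of the day 80 epidermal and partial-thickness day 3 and day 7 lists and none in the others.

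Among other steroid receptors, Nr3c1, the glucocorticoid receptor, had 4, 6, 5, 6, 5, 4, 6 and 4 of 8 regions, 3 of them constant. Nr3c2, the mineralocorticoid receptor (chr8:76898083-77245012), had 2, 3, 1, 4, 4, 1, 4 and 2 of 7. Its main start-site region was in all lists. Of its 5 regions far inside the gene, 4 were in early wound lists and nowhere else, among them chr8:77132711-77133513 in all 3, with ranks of 45.7, 30.2 and 52.7. Pgr, the progesterone receptor, had no region, and the nearest lay 68699 bp away.

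Nr2f2 (COUP-TFII, chr7:70351946-70366746) had 2, 5, 4, 2, 1, 3, 1 and 3 of 5 regions. All 5 were in day 0 epidermis and only the constant one, chr7:70360780-70362320, was in both day 7 wound lists. Nr2f6 had its start site in 6 lists, without day 0 epidermis and partial-thickness day 80, and another region at partial-thickness day 80. The TR2 and TR4 genes Nr2c1 and Nr2c2 had open start sites in all lists. Nr2c1 had 1, 3, 2, 3, 3, 3, 3 and 3 regions, and Nr2c2 a second region in the 3 early wound lists alone. Nr2f1 (COUP-TFI) and Nr2e1 (TLX), factors of the nervous system, had none, and their nearest regions lay 24885 bp and 58805 bp away.

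The NR4A genes encode early-response receptors that need no known ligand. They were the most constant class, with 7 of 10 regions in all 8 lists. Nr4a1 had 3 regions in every list but partial-thickness day 3, which lacked its outer start site. Its region 7067 bp away, chr15:101245928-101246835, ranked 79.1, 69.9 and 83.6 in the unwounded lists and 98.1, 92.3, 94.5, 97.0 and 87.1 in the wound lists. Nr4a2 had a region at chr2:57084979-57085692 in both early partial-thickness and both full-thickness lists and in no unwounded list. Nr4a3 had 3 constant regions and 1 more at partial-thickness day 7. Ranks within lists of different length show no change between them. Nr6a1 (GCNF), an orphan of the germ line, had 5, 7, 6, 7, 7, 7, 8 and 7 of 8 regions, 4 of them constant, and Nr5a2 had none.

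Differences of single genes between lists rest on few regions. Counts under other settings are given for the members alone, without the share over all regions under the same setting. They do not show whether the members moved apart from all regions. Of 240 values of the members' differences of 3 or more regions under the other settings, 60 changed by more than 1.5 times or turned, 24 in the upper 50% of the lists, 15 with lists of equal length and 14 under 50% cover. Unwounded hair follicle and epidermal stem cells were compared first. Of the 154 member regions in either day 0 list, 32 (20.8%, interval 14.7% to 28.0%) were in the hair follicle list alone, beside 24.3% of all assigned regions in either list. The epidermal list alone held 56 (36.4%, interval 28.8% to 44.5%), beside 28.0%. This was the only 1 of the 22 such shares in the 11 comparisons whose interval left out the share over all regions. Thrb (8 against 13), Esr1 (3 against 8), Esrrg (2 against 7), Rora (9 against 12) and Nr2f2 (2 against 5) had more regions in the epidermis, and Rxra (10 against 7) in the hair follicle. Rora had equal numbers when only the upper 50% of each list was used. In all, 13 genes had more regions in the epidermis, 8 in the hair follicle, and 13 as many in both. With the day 0 epidermal list, hair follicle cells shared 42.9% of the member regions in either, beside 47.7% of all. With that of day 80 they shared 72 of 149 (48.3%, beside 48.7%).

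Between the unwounded epidermal lists of days 80 and 0, 102 of 143 member regions were shared. Day 80 alone held 21 (14.7%, beside 16.0% of all) and day 0 alone 20 (14.0%, beside 12.0%). Under a rule of at least 50% cover of a region by peaks, the counts were 14 and 29, and without Rora they were 10 and 18. Rora had 21 against 12 and Thrb 9 against 13. These lists have the same label apart from time, but they differed in their markers: genes of basal keratinocytes had 16 of 66 regions at day 0 and 33 at day 80, with Trp63, the master factor of these cells, at 2 against 10 and Col17a1 at 1 against 5. The part of this in the differences of the members was not tested, here or in the other comparisons that use the day 0 epidermal list.

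After the partial-thickness wound, cells at day 3 were set against their labelled origin. Day 3 alone held 61 of 159 regions (38.4%, interval 30.8% to 46.4%), beside 34.5% of all, and the hair follicle alone 35 (22.0%, interval 15.8% to 29.3%), beside 17.4%. Rora (13 against 9), Esrrg (5 against 2), Ppard (5 against 2) and Pparg (3 against 0) had more at day 3. With lists of equal length the direction turned, with 37 regions at day 3 alone and 41 in the hair follicle list alone. Rora then had 9 in each, Pparg 1 against 0 and Ppard 3 against 2, while Esrrg stayed at 5 against 2. Day 7 and day 3 shared 102 of 148 regions. Day 7 alone held 24 (16.2%, beside 11.5%) and day 3 alone 22 (14.9%, beside 14.8%). Rora (17 against 13) and Thrb (10 against 6) had more at day 7 and Esr1 (2 against 5) fewer. Rora and Esr1 had equal numbers at both days in the upper 50% of the lists. Under 50% cover the counts were 20 at day 7 alone and 27 at day 3 alone, without Rora 17 and 19, and with lists of equal length 26 and 12.

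At day 80 of the partial-thickness wound 34 of 160 regions were listed that day 7 lacked (21.2%, beside 18.7%), and 33 were at day 7 alone (20.6%, beside 22.0%). Esr1 had 7 against 2 and Ppara 7 against 3, while Nr3c2 had 1 against 4. The last difference was gone in the upper 50% of the lists. Against unwounded epidermis of day 80, the healed wound alone held 24 of 147 regions (16.3%, beside 17.6%) and the epidermis alone 20 (13.6%, beside 12.9%). Ppara, with 7 against 4, was the only member to differ by 3 or more. It had 4 against 3 with lists of equal length and with a gene window of 10 kb. In the upper 50% of the lists it had 1 against 0, and under 50% cover 7 against 2. Under 50% cover the wound alone held 62 regions and the epidermis alone 14.

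Full-thickness day 7 alone held 51 of 173 regions against day 0 epidermis (29.5%, interval 22.8% to 36.9%), beside 32.6% of all, and the epidermis alone 36 (20.8%, interval 15.0% to 27.6%), beside 16.1%. Rora (21 against 12), Ppard (7 against 1) and Rara (6 against 1) had more in the wound. Esrrg (2 against 7), Nr2f2 (1 against 5), Thrb (10 against 13) and Esr1 (5 against 8) had fewer. Of the 6 Rara regions none was in the upper 50% of either list. At day 80 of this wound 36 of 173 regions were listed that day 7 lacked (20.8%, beside 15.5%) and 43 were at day 7 alone (24.9%, beside 26.8%). Rarb (11 against 8), Esr1 (8 against 5) and Esrrg (5 against 2) had more at day 80, and Rora (17 against 21) and Ppard (3 against 7) fewer. Under 50% cover, 19 regions were at day 80 alone and 103 at day 7 alone, Rarb turned to 7 against 8, Esr1 and Esrrg were equal, and Rora had 5 against 20. Peaks of the day 80 list were the narrowest. Against day 80 epidermis, the healed full-thickness wound alone held 27 of 150 regions (18.0%, beside 17.2%) and the epidermis alone 20 (13.3%, beside 14.7%), with Rarb at 11 against 7 and Rora at 17 against 21. Under 50% cover these counts were 18 and 42, and with lists of equal length 19 and 22.

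The wound types, which also differ in genotype and labelled origin of the cells, were compared at matched days. At day 7 the full-thickness list alone held 33 of 159 regions (20.8%, beside 19.9%) and the partial-thickness list alone 22 (13.8%, beside 13.6%). Rora (21 against 17), Rxra (9 against 6), Esr1 (5 against 2) and Ppard (7 against 4) had more in the full-thickness list, and Esrrg (2 against 6) in the partial-thickness list. With lists of equal length, Rora had 15 against 13, Rxra 8 against 6 and Esr1 3 against 2. Ppard then had 6 against 1, and Esrrg stayed at 2 against 6. At day 80 the full-thickness list alone held 27 of 154 (17.5%, beside 14.8%) and the partial-thickness list alone 24 (15.6%, beside 17.0%). Rarb had 11 against 8 regions and Ppara 3 against 7. With lists of equal length Ppara had 3 against 4, and in the upper 50% 0 against 1. Under 50% cover it had 1 against 7, and with a gene window of 10 kb 1 against 4. Rarb was equal, at 7 each, under 50% cover, where 16 regions were in the full-thickness list alone and 88 in the partial-thickness list alone. In the upper 50% of the lists the counts were 15 and 25, and with lists of equal length 18 and 21. Comparisons that share a list are not independent, and the values of each are its own.

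**Figure D3:**
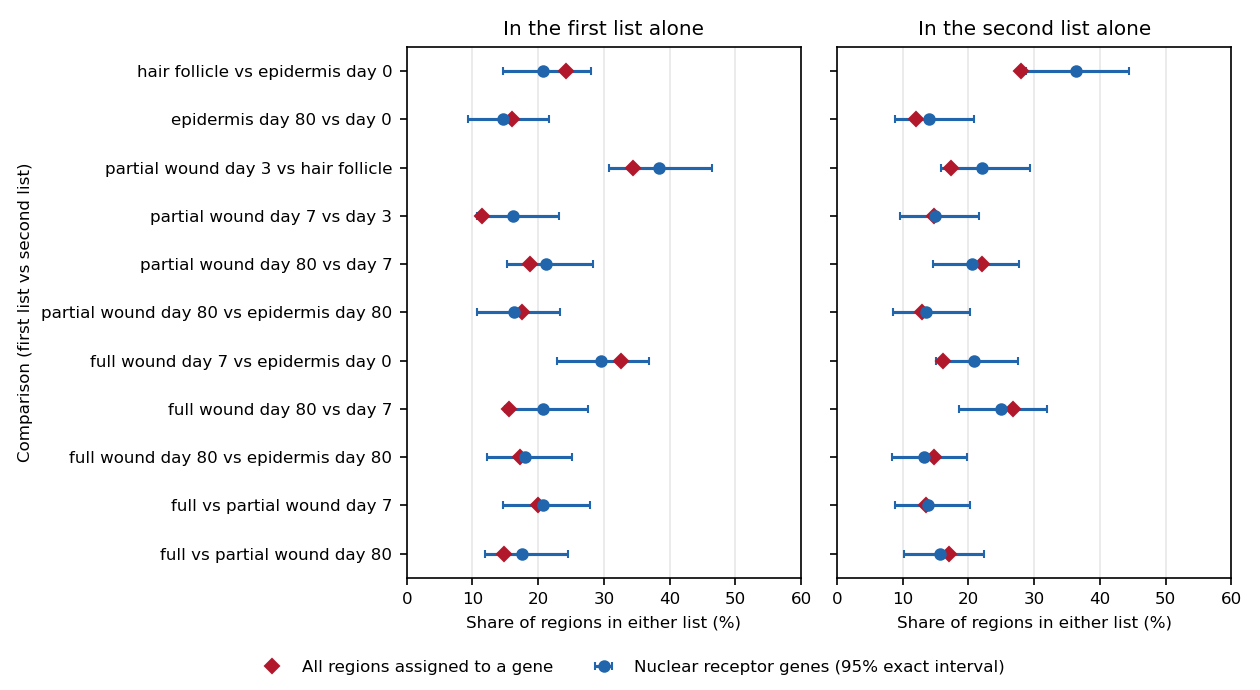
Percent of the member regions in either list of a comparison (rows) that were in the first list alone (left) or the second alone (right), as points with exact 95% intervals, beside the same percent over all assigned regions (diamonds). The diamond lies outside the interval in 1 of 22 cases, the day 0 epidermal list against the hair follicle list (36.4% beside 28.0%).

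Regions followed across all 8 lists gave further classes. All lists except that of the hair follicle held 17 member regions of 12 genes (7.39%, interval 4.36% to 11.6%), beside 4.74% of all assigned regions. They include the start sites of Ppara and Esr1, 2 regions each of Esrrg, Nr1h4, Thrb, Nr1d2 and Rora, and 1 each of Nr2c1, Vdr, Nr3c1, Rxra and Nr6a1. Under 50% cover, and likewise in the upper 50% of the lists, the class had 5 regions. The hair follicle list alone held another 17 (7.39%, beside 7.44%), 5 of them at Rarb, 4 at Thrb and 3 at Rxra. All 8 lists held 47 (20.4%, interval 15.4% to 26.2%), beside 24.4%, a count that was 18 under 50% cover and 11 in the upper 50%.

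Of 24 member regions of hair follicle cells that neither epidermal list held, 2 were found at partial-thickness day 3 (8.33%, interval 1.03% to 27.0%), beside 31.3% of the 6719 such regions of all genes. The number was 4 at day 7 (16.7%, beside 29.2%) and 2 at day 80 (8.33%, beside 12.3%). The share of the members at day 3 was higher under 2 other rules. It was 29.4% of 34 regions under the rule of 50% cover, and 7 of 14 in the upper 50% of the lists. The share over all genes under these 2 rules is not given, so whether the members stayed below it is not shown. In the other direction, 38 member regions were in both epidermal lists and not in the hair follicle list. Of these, the partial-thickness lists held 17 at day 3 (44.7%, beside 48.2%), 23 at day 7 (60.5%, beside 56.7%) and 33 at day 80 (86.8%, beside 83.7%). The full-thickness lists held 21 at day 7 (55.3%, beside 59.2%) and 32 at day 80 (84.2%, beside 80.7%).

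An early wound list but no unwounded list held 52 member regions of 21 genes (22.6%, interval 17.4% to 28.6%), beside 24.2% of all assigned regions. Rora had 11 of them, Rarb 5, Ppard 4, Nr3c2 4, Pparg 3, Thrb 3 and Rara 3. The 52 became 79 under the rule of 50% cover and 25 in the upper 50% of the lists. The wound list of partial-thickness day 3 held 32 of the 52 (61.5%, beside 60.5% of such regions of all genes). That of day 7 held 24 (46.2%, beside 44.0%), and that of full-thickness day 7 39 (75.0%, beside 71.5%). All 3 held 10 regions that were in no other list (4.35% of all member regions, interval 2.1% to 7.85%, beside 3.38%). Of these, 3 were at Rarb, 2 each at Nr3c2 and Rora, and 1 each at Nr6a1, Nr2c2 and Pparg. Of the 52, 11 were still in a day 80 wound list (4.78% of all member regions, beside 5.62%), 2 at Ppard and 1 each at Esrrg, Esr1, Thra, Rara, Rarb, Thrb, Ppara, Nr4a2 and Rora. The other 41 were in neither (17.8% of all member regions, beside 18.6%), among them all those of Pparg and Nr3c2.

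**Figure D4:**
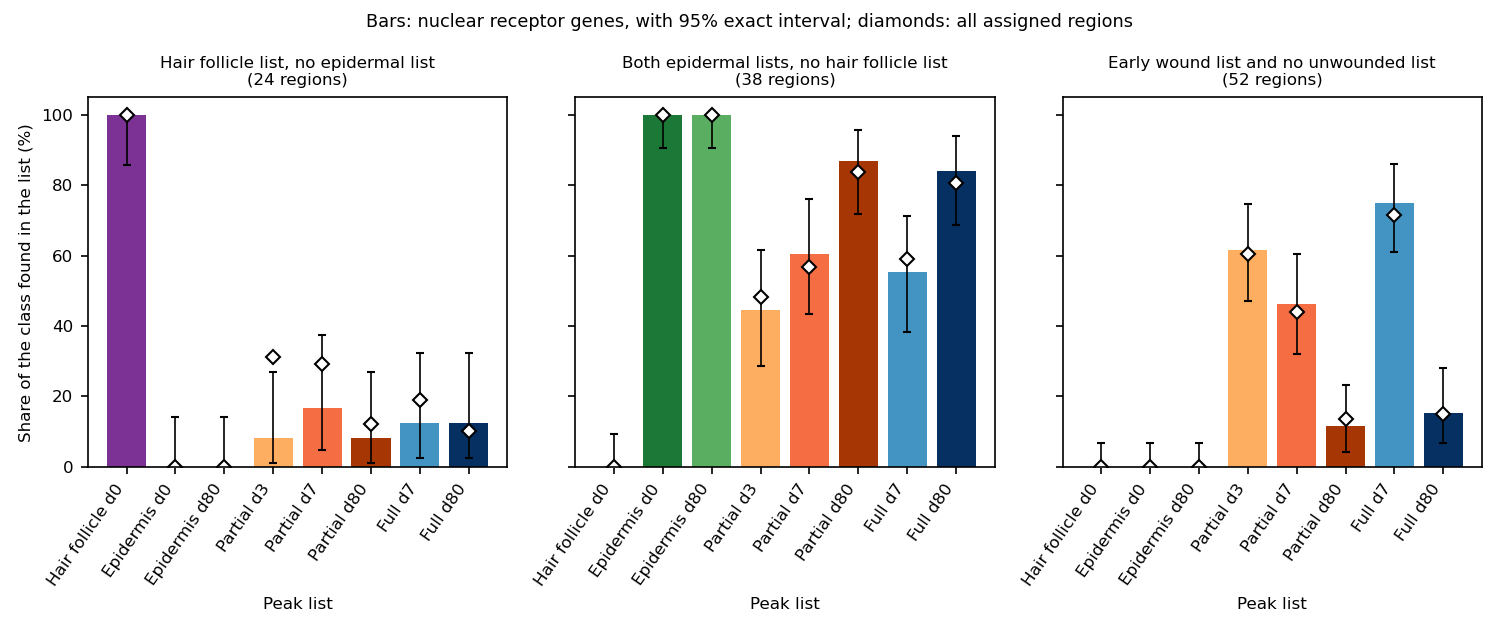
Percent of 3 classes of member regions (24, 38 and 52 regions) found in each list, as bars with exact 95% intervals, with the same percent over all genes as diamonds. Lists that define a class stand at 100% or 0% by construction. Of the class in both epidermal lists, the day 80 wound lists hold 86.8% and 84.2%, and the bars of the early wound lists lie between 44.7% and 60.5%.

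Genes that work with these receptors gave context, from lists chosen with earlier results known. Shares of these lists are given for only some of the 11 comparisons, and without intervals. The 15 coregulator genes (97 regions) had 35, 54, 50, 54, 53, 56, 49 and 52 regions. Of the 66 in either day 0 list, 12 (18.2%) were in the hair follicle list alone and 31 (47.0%) in the epidermal list alone, beside the 24.3% and 28.0% of all regions given above. Nrip1, a corepressor of hormone-bound receptors, had 3, 12, 7, 5, 6, 7, 6 and 6 of 15 regions, and Tbl1xr1, a part of corepressor complexes, 1, 6, 5, 2, 3, 6, 3 and 5 of 8. The coactivator gene Ncoa1 had 1, 0, 1, 4, 3, 2, 4 and 1 of 5. Ppargc1a, a metabolic coactivator, had 8, 11, 10, 9, 8, 8, 3 and 7 of 18, the fewest at full-thickness day 7.

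The 15 genes of retinoid uptake, synthesis and breakdown (58 regions at 12 genes) had 22, 19, 19, 28, 26, 19, 33 and 20 regions. Full-thickness day 7 alone held 19 of 38 against day 0 epidermis (beside 32.6% of all regions), and 18 of 38 against day 80 of the same wound (beside 26.8%). Among the 11 comparisons of this list, these shares lay furthest from those of all regions. Full-thickness day 80 alone held 5 of 24 against day 80 epidermis (20.8%, beside 17.2%), and that epidermis alone 4 (16.7%, beside 14.7%). Lrat, which stores retinol as ester, had 3, 0, 0, 3, 3, 0, 1 and 0 regions, in the hair follicle and early wound lists alone. Crabp1, a retinoic acid binding protein, had 1, 0, 0, 2, 0, 0, 2 and 0. Stra6, the retinol uptake receptor, had 5 regions at full-thickness day 7 and 0 to 3 elsewhere. Cyp26b1, which degrades retinoic acid, had 6 at full-thickness day 7 and 2 to 4 elsewhere. Aldh1a1, a synthesis enzyme, had 6, 6, 8, 2, 2, 5, 3 and 6 of 12. The 12 genes of ligand supply (40 regions at 11 genes) had 12, 22, 19, 26, 22, 20, 25 and 20 regions, and Hsd17b2, which inactivates oestradiol, 2, 3, 3, 6, 5, 4, 5 and 4 of 6.

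The 20 known target genes (135 regions) had 65, 58, 69, 73, 75, 72, 85 and 68 regions. The hair follicle list alone held 29 of 87 against day 0 epidermis (33.3%, beside 24.3% of all regions), and that epidermis alone 22 (25.3%, beside 28.0%). Against day 0 epidermis, full-thickness day 7 alone held 41 of 99 (41.4%, beside 32.6% of all regions) and the epidermis alone 14 (14.1%, beside 16.1%). In this second pair, single genes differed as follows. Nfil3, a clock factor repressed by REV-ERB, had 8 against 2, Arntl, the clock activator, 11 against 6, and Fkbp5, a glucocorticoid-induced cochaperone, 7 against 2. Zbtb16, also induced by glucocorticoids, had 3 against 8. Greb1, induced by oestrogen, had 4, 2 and 2 regions in the 3 early wound lists, 1 in the day 80 epidermis and none elsewhere. These values describe where regions lie near the genes and say nothing of their transcripts.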

How the data were processed

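Skin cells of 24 samples were profiled by ATAC-seq, and 8 peak lists, 1 per group, were analysed. Bowtie, Picard, MACS2 2.1.1.20160309, bedtools 2.29.2 and the mm10 build are named per the submitters' processing notes. The role of each tool and any pooling of replicates are not stated there. A deposited peak carries a score, a fold enrichment ratio and a −log10 p, all the authors' and relative to its own list, so they served only to rank or filter within a list. Gaps in the peak numbers show that the authors kept 32.8% to 82.5% of calls. A stricter threshold can drop a weak region from a list, and wider peaks can add one.

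Peaks were merged, and regions given to the nearest of 21887 protein-coding genes (RefSeq, GRCm38.p6) within 50 kb, or to each gene at equal distance, which touched 7 member regions. Presence was compared in 11 pairs of lists with exact 95% intervals, in Python 3.11.15 with pandas 2.3.3, numpy 2.4.6, SciPy 1.17.1 and matplotlib 3.10.9, after a check on simulated data. No test between groups was run, since each has 1 list. The share over all assigned regions stands as background beside the shares under the main settings, and is not given for the other settings.

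The members and lists were chosen with earlier results of these data known. All members are described. In each pair, up to 5 members per direction with the largest difference in regions were eligible to be named (3 per direction in the other gene lists), and, as chosen after values were seen, those that differed by at least 3. The differences of 1 gene of the ligand supply list are not reported here. Single regions were named for patterns across wound and unwounded lists, and further ones as examples after their values were seen. Alternatives were 50% cover, the upper 50% by score, lists of equal length, 500 bp windows at summits, gene windows of 10 kb and 100 kb, 2 kb start-site windows, and the day 80 epidermal list in place of that of day 0. Results without Rora were added after seeing the data.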

Additional observations from a re-analysis of the deposited data

How the results depend on the processing

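For each of the 11 comparisons, the share of member regions differing between the lists that lay in the first list was recomputed, giving 79 values under alternatives. The same share over all regions under these alternatives is not given. Of these, 69 stayed within the counting interval of the share as reported and 10 went beyond it. In all, 14 crossed 50%, so that the other list of the pair held more regions alone, 9 of them within the interval and 5 beyond it. Partial-thickness day 3 against the hair follicle, whose interval left out 50%, went from 63.5% to 47.4% with lists of equal length. The other 4 that crossed beyond the interval had intervals that held 50%: 32.6%, 30.0%, 15.4% and 37.5% below, from 51.2%, 57.4% and, for the last 2, 52.9%. With lists of equal length the share for partial-thickness day 7 against day 3 moved from 52.2% to 68.4%. Under a rule of 50% cover of the region by peaks, the share was 32.6% for epidermis day 80 against day 0, 81.6% for partial-thickness day 80 against epidermis day 80, 69.9% for full-thickness day 7 against epidermis day 0, 15.6% for full-thickness day 80 against day 7, 30.0% for full-thickness day 80 against epidermis day 80 and 15.4% for full-thickness against partial-thickness at day 80. In the upper 50% of each list it was 69.7% for partial-thickness day 80 against epidermis day 80 and 37.5% for full-thickness against partial-thickness at day 80. The first setting counts fewer regions in the lists with narrow peaks: full-thickness day 80 held 48 member regions under it, against 130. The cause of the other changes was not tested. Leaving out Rora, 500 bp windows, gene windows of 10 kb or 100 kb and the day 80 epidermal list in place of that of day 0 moved no share beyond its interval. Crossings within the interval came without Rora (3), with 100 kb (2), 500 bp windows (1), equal lengths (2) and 50% cover (1), among them epidermis day 80 against day 0 at 35.7% without Rora. Start-site regions in all 8 lists numbered 16 with a 2 kb window, against 15.

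Class counts moved too: regions in an early wound list and no unwounded list numbered 79 under 50% cover and 25 in the upper 50%, those missing from the hair follicle list alone 5 under each, and those in all 8 lists 18 and 11. For gene differences of at least 3 regions, followed under 6 settings, 588 of 630 values kept their direction, 34 fell to no difference (16 of these in the upper 50%) and 8 reversed. Rarb at full-thickness day 80 against day 7 became −1 under 50% cover, where Tsc22d3 at full-thickness against partial-thickness day 80 became −4. In the upper 50%, Ppargc1b and Hsd17b2 at partial-thickness day 3 against the hair follicle and Fabp5 at full-thickness against partial-thickness day 7 became −1, Tsc22d3 at partial-thickness day 3 against the hair follicle 1, and Nfil3 at partial-thickness day 80 against day 7 2. With lists of equal length, Aldh1a3 at full-thickness day 7 against epidermis day 0 became −1. No paired analysis was possible because each group has 1 list and its columns carry no replicate numbers, and for the same reason no replicate could be left out. Depth is unknown, so a region not in a list was not detectable at that list's threshold.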
